A study of Mus musculus with 4 samples.

Results

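Acinar-like epithelial cells were picked out of 4 single-cell RNA libraries of the mouse submandibular gland by a rule on raw UMIs (unique molecular identifiers, 1 per captured RNA molecule). Barcodes entered with 300 or more genes detected and mitochondrial UMIs of 10% or less. A member had at least 2 UMIs of Aqp5 and Bhlha15 together, at least 1 of Krt8, Krt18 or Epcam, none of Ptprc or Pecam1, fewer than 3 of Krt5 and Krt14, fewer than 3 of Fxyd2 and Cox8b, and under 5% of its UMIs in the Klk1b genes. The rule found 120 members among 36685 retained cells and 39558 barcodes: 4 and 3 in the deligated replicates 1 and 2, and 53 and 60 in the homeostatic replicates 1 and 2.

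All mice were female C57BL6/J without a transgene named in the labels. In the deligated group (age 14 weeks) the main excretory ducts were clipped shut for 14 days and then freed of the clip for 5 days, and the homeostatic group (age 12 weeks) had no operation. In both groups the suspension was depleted of EpCAM- and Ter119-bearing cells with beads and then of dead cells, so epithelium is what escaped depletion and its numbers are not those of the gland. Sublingual glands are named in the protocols although the tissue label reads submandibular, and how many animals gave each library is not stated. Age, software version in the file headers and surgery changed together between the groups and cannot be told apart. The p-values below rest only on the spread between these libraries, as estimated over many genes, or over the cell classes, together. A gene whose libraries differ widely within a group can therefore still have a small p-value.

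Acinar cells are the secretory units of salivary glands. They make the protein and mucin of saliva in a large endoplasmic reticulum, store it in granules, and release it with chloride-driven fluid when nerves stimulate muscarinic and adrenergic receptors. Aqp5 is the apical water channel of these cells, and Bhlha15 (Mist1) is a transcription factor of secretory cells. Rodent acini differ by gland and sex in the product they carry: Mucl2, the secretoglobins and Prol1 in the submandibular gland, the Dcpp proteins in demilune and parotid cells, and Smgc (submandibular gland protein C) in the neonatal gland and adult ducts.

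The stretches below lie directly before the RefSeq start of the product genes that led the members, in GRCm38.p6 coordinates, 5′ to 3′ on the gene's strand. They are shown because 3 of these genes are near copies of each other, which limits how their counts can be told apart. The 150 bases are at chr15:103899313-103899462 (minus strand) for Mucl2, chr15:91838178-91838327 (plus) for Smgc, chr17:23880726-23880875 (plus) for Dcpp1, chr17:23898572-23898721 (plus) for Dcpp2 and chr17:23917308-23917457 (plus) for Dcpp3. Capitals mark TATAA or TATAT on either strand, merged where the motifs overlap.
Mucl2: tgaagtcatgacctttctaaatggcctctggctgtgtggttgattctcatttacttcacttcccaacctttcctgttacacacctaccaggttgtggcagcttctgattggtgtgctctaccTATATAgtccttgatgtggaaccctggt
Smgc: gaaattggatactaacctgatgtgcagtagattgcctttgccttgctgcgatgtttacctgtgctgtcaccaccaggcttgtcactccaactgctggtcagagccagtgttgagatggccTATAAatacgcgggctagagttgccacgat
Dcpp1: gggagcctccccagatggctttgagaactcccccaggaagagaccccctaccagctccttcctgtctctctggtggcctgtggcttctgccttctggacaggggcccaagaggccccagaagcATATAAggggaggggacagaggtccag
Dcpp2: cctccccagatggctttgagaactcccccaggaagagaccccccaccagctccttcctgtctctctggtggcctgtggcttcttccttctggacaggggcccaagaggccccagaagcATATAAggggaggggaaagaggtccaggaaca
Dcpp3: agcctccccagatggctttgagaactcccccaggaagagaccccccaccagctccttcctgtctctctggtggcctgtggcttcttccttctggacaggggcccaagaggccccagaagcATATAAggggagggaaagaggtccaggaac

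In each of these 5 windows the marked letters begin between 27 and 32 bases before the start. Of 32851 promoter windows of the same length, 18.5% held TATAA or TATAT anywhere, and 5.35% held one whose first base lay 20 to 40 bases before the start. A match is a description of the letters only. CANNTG, the letters bound by the protein family of Bhlha15, occurred once in the Smgc window and in each Dcpp window, was not in the Mucl2 window, and occurred in 47.7% of all windows. The Dcpp2 and Dcpp3 windows were 97.4% identical, Dcpp1 and Dcpp3 92.9%, and Dcpp1 and Dcpp2 91.6%. The last 300 bases of the annotated Dcpp1 and Dcpp3 transcripts were 92.3% identical, those of Dcpp2 and Dcpp3 82.4% and those of Dcpp1 and Dcpp2 77.8%, and the annotated Dcpp2 gene overlaps Dcpp1 on the same strand. Counts of the single Dcpp genes are therefore uncertain, and their sum is given beside them.

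The markers that named these cells were present. Aqp5 had 28 and 16 UMIs in deligated members and 506 and 485 in homeostatic ones, and Bhlha15 had 3 and 0 against 65 and 52 UMIs. Since the rule used these genes, this is a description. Bhlha15 was the less often detected of the pair, in 2 of 7 deligated and 49 of 113 homeostatic members. Epcam had 27 and 1 against 226 and 228 UMIs, although EpCAM-bearing cells had been depleted, and 79 members had at least 1 Epcam UMI.

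Markers of other cell types were mostly low but not absent. Mural markers were at 0 in 3 of the 4 libraries and striated duct markers at 0 in both deligated libraries. The 6 fibroblast markers summed to 437 and 0 UMIs for deligated members and to 89 and 8 for homeostatic ones, and the 8 leukocyte markers to 30 and 3 against 155 and 25. The 8 endothelial markers summed to 1 and 9 against 18 and 25. Of the hemoglobin genes used as erythroid markers, 1 homeostatic member of replicate 1 held 281 UMIs, beside 17 leukocyte marker UMIs. No deligated member held more than 4 erythroid marker UMIs. An intercalated duct list reached 7321 and 11646 UMIs in the homeostatic members, of which 7307 and 11623 were Smgc, and 13 and 0 in the deligated members.

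The homeostatic members were not alike: product shares separated them into kinds (plot of product share per cell). The gaps were wide for the Mucl2 set, the Dcpp genes and Smgc, and narrow for A2ml1. These kinds were drawn after the values were seen, and no test is given on them. Most were led by the Mucl2 set of Mucl2, Scgb1b27, Scgb2b27, Prol1, Car6 and Pip. With a boundary at 30% of a cell's UMIs, 83 members lay at 54.9% or more and 37 at 13.4% or less. The member at 54.9%, of homeostatic replicate 1, held 85 fibroblast marker UMIs, 58 of them Dcn, and a high doublet score. The Mucl2-led cells were 35 of 53 (66.0%, exact 95% interval 51.7 to 78.5%) and 44 of 60 (73.3%, 60.3 to 83.9%) of the homeostatic members, and the 2 replicates lay within each other's intervals.

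**Figure D1:**
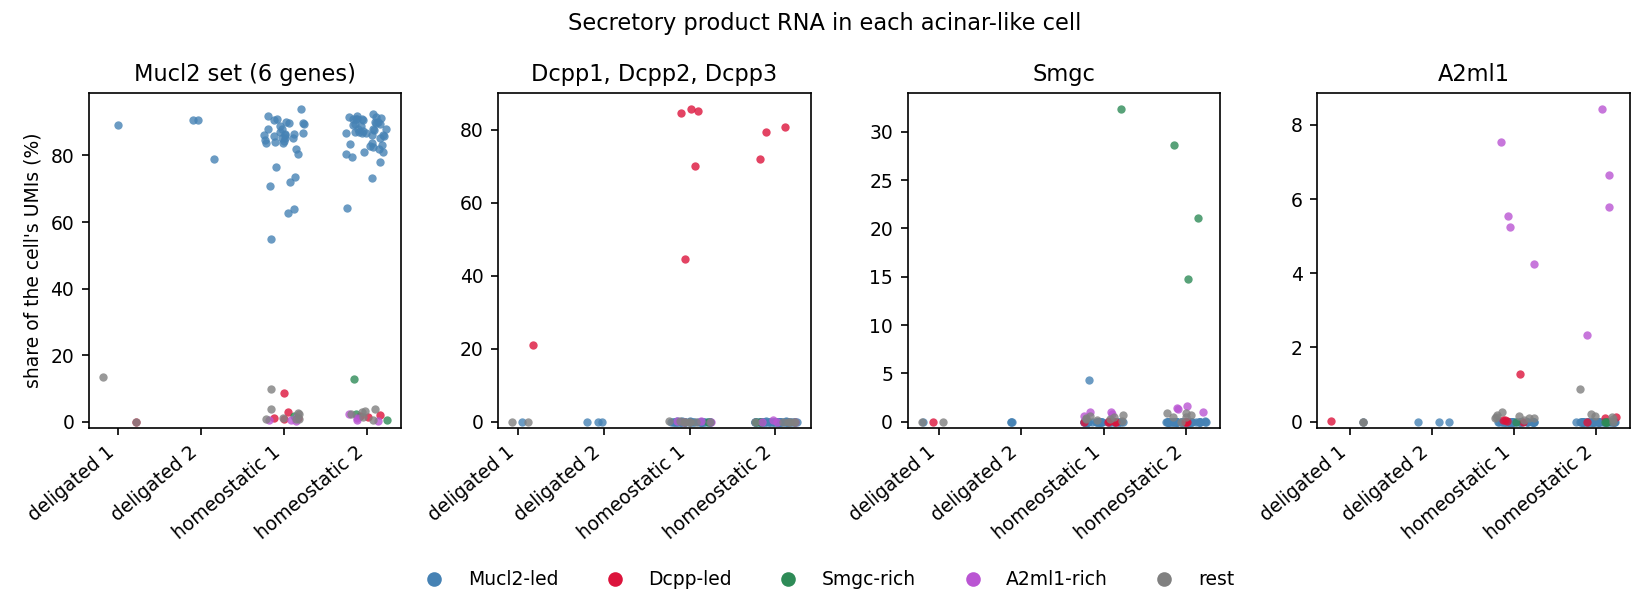
Each point is 1 acinar-like cell, placed by library (horizontal axis) and by the share of its UMIs (vertical axis, %) in the Mucl2 set, the Dcpp genes, Smgc or A2ml1; colours give the kind of cell. The Mucl2-led cells sit at 54.9% or more in the left panel, and no other member lies above 13.4%.

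In the 79 homeostatic Mucl2-led cells, Mucl2, a small secreted mucin-like protein (chr15:103895855-103899312), took from 36.7% to 82.5% of all UMIs, with a median of 63.4%. Scgb1b27, a secretoglobin subunit, ranged from 5.01% to 17.5% with a median of 10.2%, and its partner Scgb2b27 from 2.58% to 7.62% with a median of 4.45%. Prol1, a proline-rich salivary protein, had a median of 4.82% and reached 15.3%. All 79 cells held all of these products. Car6, the carbonic anhydrase secreted into saliva, had a median of 1.28%, and Pip, a secreted protein of exocrine glands, a median of 0.964%. The rule did not use any of them.

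By a measure of likeness chosen after the values were seen, a gene's lowest level in the 2 homeostatic libraries of one kind over its highest level in the others, the genes nearest to the Mucl2-led pattern were Mucl2, Prol1, Scgb2b26, Car6 and Scgb1b27. With 20 CPM added to both levels, this ratio was 22.8, 17.4, 16.8, 15.0 and 12.2, over 2 libraries. All but Scgb2b26 are genes of the set that defined the kind. The major urinary protein Mup5 followed, with 259.5 and 113.9 CPM (UMIs per 1000000 UMIs of the summed cells) in Mucl2-led cells and none in the other kinds, and then lactoperoxidase, Lpo, with 92.0 and 80.8.

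Members led by Dcpp genes were 8 of 113 homeostatic cells (7.08%, 3.11 to 13.5%), 5 and 3 in the replicates. Dcpp1, Dcpp2 and Dcpp3 (chromosome 17) together took 44.7% to 85.7% of their UMIs, with a median of 80.2%, whereas every other homeostatic member was at 0.337% or less. Mucl2 set RNA was still present in them, at 0.946% to 8.62%. The 44.7% and the 8.62% came from the same cell of replicate 1, which held 104 leukocyte marker UMIs, 67 of them Cd74. Without it the Dcpp genes took 70.2% or more and the Mucl2 set 2.96% or less. Bpifa2, the parotid secretory protein, followed the same cells at 19088 and 33830 CPM against 90.2 or less in any other kind. Kcne1, a potassium channel subunit, had 235.9 and 431.2 CPM there and none elsewhere.

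The other 26 homeostatic members belonged to neither set. In 4 of them Smgc (chr15:91838265-91861438) took 14.7% to 32.4% of UMIs, against 1.58% or less in the other 22. All 4 of these cells were among those with the highest doublet scores in their libraries, as was 1 other of the 120 members, a Mucl2-led cell, so whether they are single cells was not tested. Beside Smgc, the genes nearest to their pattern were Tll1, a metalloprotease, and Col11a1, a fibrillar collagen chain. Slc12a2, the basolateral chloride uptake transporter of secretory cells, reached 2255 and 3167 CPM, from 1 and 3 cells, against 922 or less in the other kinds. These CPM are over all UMIs, and in homeostatic Mucl2-led cells the Mucl2 set alone took a median of 86.7%. The contrast therefore mixes gene level with product share. Outside the secretory products, Slc12a2 stood at 28.7 and 37.8 UMIs per 10000 in the deeper Mucl2-led cells described below, and at 13.2 and 8.06 in the others. Smgc was detected in 35 of the 113 homeostatic members in all, including 9 of the Mucl2-led cells.

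Another 8 carried A2ml1, a secreted protease inhibitor, at 2.34% to 8.42% of UMIs, against 0.872% or less in the remaining cells outside the 2 product sets. Wfdc12, an antiprotease-like secreted protein, was as abundant in them as A2ml1, at 1.59% to 10.8% with a median of 4.90%. Nupr1, a small stress-linked nuclear protein, had a median of 1.39%. The last 14 members had low A2ml1 and also carried these genes: Wfdc12 ran from 1.39% to 11.4% (median 6.27%) and Nupr1 from 0.737% to 6.29% (median 1.96%). In Mucl2-led cells the medians were 0.158% for Wfdc12 and 0.0495% for Nupr1. These are shares of all UMIs, most of which are Mucl2 set RNA in those cells, so the medians do not compare the kinds on equal terms. Counted outside the secretory products, Nupr1 stood at 45.5 to 63.1 UMIs per 10000 in sums of homeostatic Mucl2-led cells. The 14 were shallow, with 1696 to 4177 UMIs, and held 2 Malat1 UMIs or fewer. The lowest of the 8, at 2.34% A2ml1, was likewise shallow, with 1451 UMIs and 1 Malat1 UMI. Whether the 8 and the 14 are separate kinds was not tested.

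Malat1 is an abundant RNA that stays in the nucleus, and it split the homeostatic Mucl2-led cells again (plot of depth and Malat1). Of the 79 cells, 55 had between 0 and 2 Malat1 UMIs, a median of 14861 UMIs from only 614 genes, and a median mitochondrial share of 0.121%. The other 24 had a median of 181 Malat1 UMIs, 65074 UMIs from 3319.5 genes and a mitochondrial share of 1.54%. Both carried the product at a like share, with medians of 87.9% and 83.1% in the Mucl2 set. Whether the first are whole cells was not tested. Over all 113 homeostatic members, 74 had 0 to 2 Malat1 UMIs, of which 15 were led by neither product set.

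**Figure D2:**
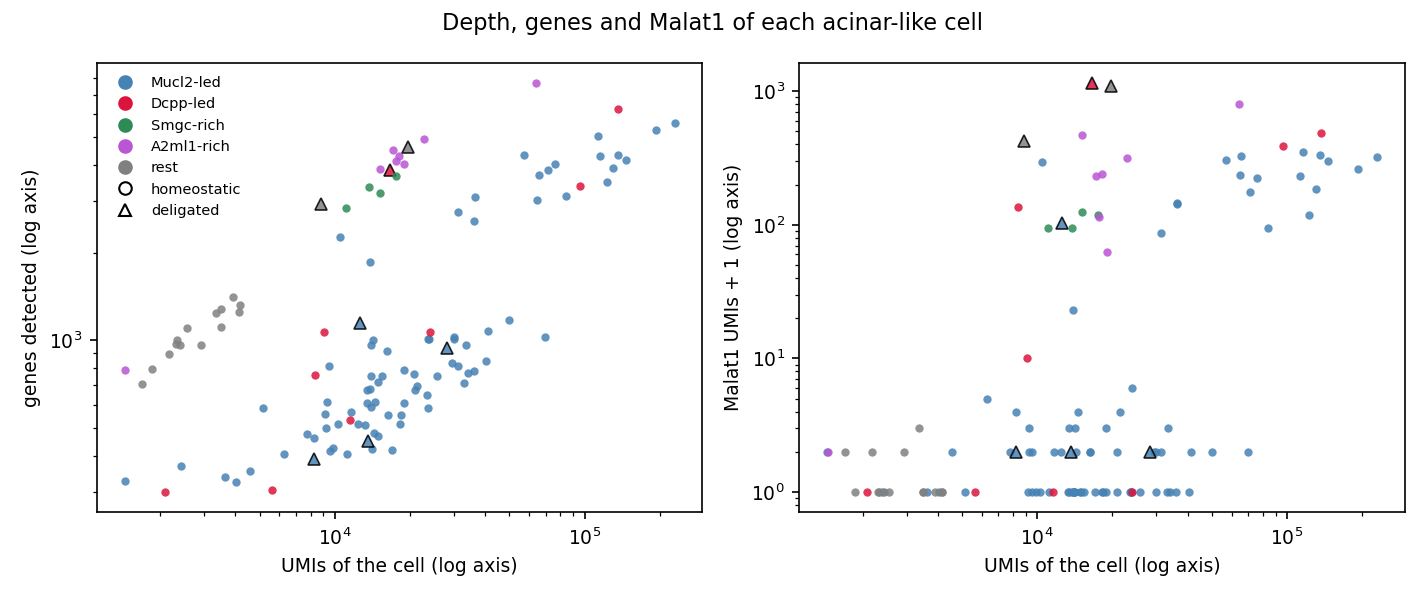
Each acinar-like cell by its UMIs (horizontal, log axis) against its detected genes (left) and its Malat1 UMIs plus 1 (right), both on log axes; circles are homeostatic, triangles deligated. The Mucl2-led cells with 0 to 2 Malat1 UMIs form a band of few genes (median 614), and most of those with more Malat1 lie above it (median 3319.5).

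Single genes of fluid secretion and nerve response, picked after their values were seen and not tested, are given for both sets of barcodes. Chrm3, the muscarinic receptor that starts secretion, was detected in 17 of the 24 cells with Malat1, at 97 and 91 UMIs, and in none of the 55 others. Slc12a2 was at 28.7 and 37.8 UMIs per 10000 outside the secretory products with Malat1 against 13.2 and 8.06 without, and Kcnma1, a calcium-activated potassium channel, at 8.53 and 7.13 against 0.919 and 0.526. Esrrg, a nuclear receptor, had 158 and 101 UMIs against 1 and 1. By contrast, the rule gene Aqp5 was at 17.0 and 16.8 with Malat1 and 19.9 and 19.1 without. Sec61b, a subunit of the channel into the endoplasmic reticulum, stood at 16.2 and 17.5 against 25.4 and 27.7.

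Product RNA was also found in cells of another type (plot of products by library). Summed over endothelial cells, defined by Pecam1, Mucl2 had 6484 and 9664 CPM in the homeostatic and 60.3 and 131.9 in the deligated libraries. In the members it had 479054 and 527375 against 117971 and 634461. After thinning every cell to 1000 UMIs, 3055 of 3204 and 3007 of 3101 homeostatic endothelial cells still held Mucl2, beside 53 of 53 and 57 of 60 members. In the deligated libraries 6.25% and 14.5% of endothelial cells did. Detection of Mucl2 alone therefore does not tell a homeostatic member from background, and the kinds were separated by the share of UMIs.

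**Figure D3:**
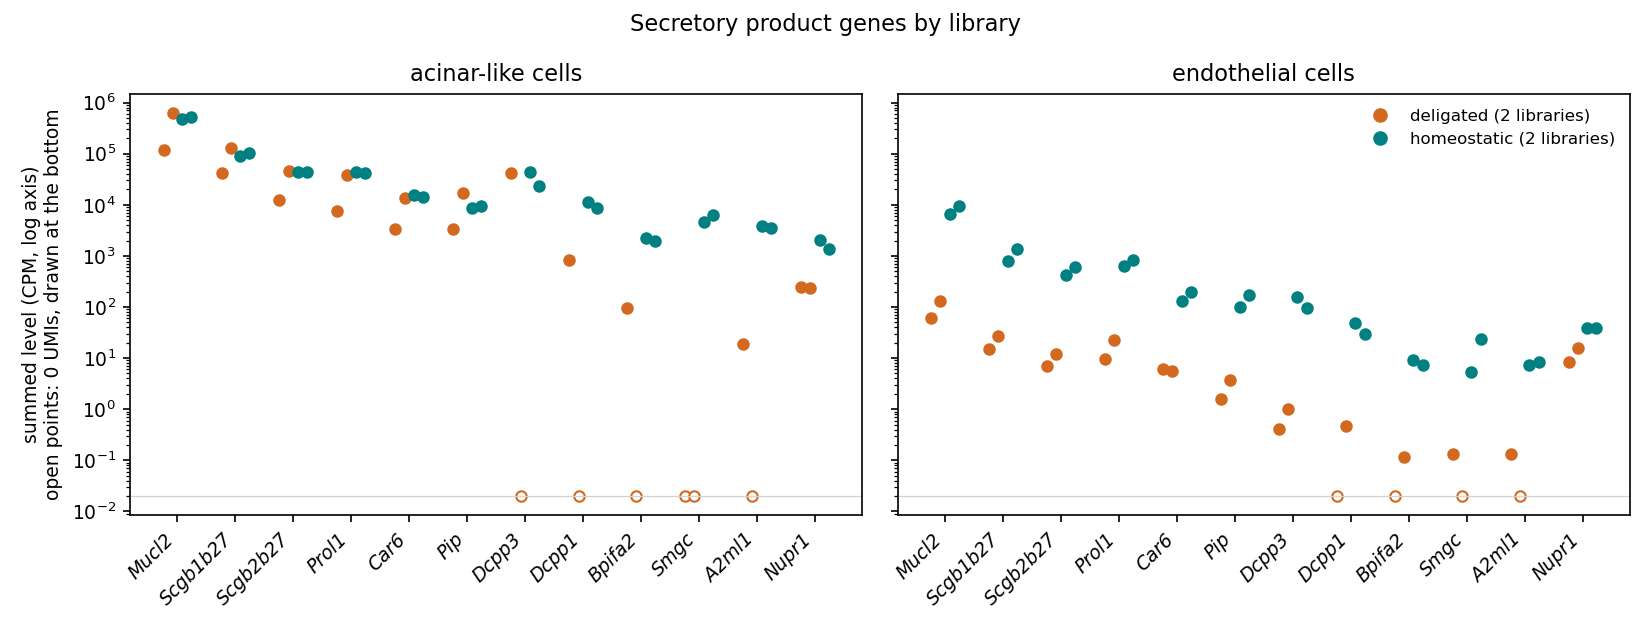
Summed level (CPM, log axis) of 12 product and acinar genes in acinar-like cells (left) and endothelial cells (right); each point is 1 library, open points at the bottom mark 0 UMIs. In endothelial cells every gene shown lies higher in both homeostatic libraries than in both deligated libraries.

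The proportions of the products inside and outside the members were compared within libraries. Per 100 Mucl2 UMIs there were 19.1 and 19.2 Scgb1b27 UMIs in homeostatic members and 12.0 and 14.2 in endothelial cells, and for Prol1 9.13 and 7.87 against 9.76 and 8.63. Dcpp3 was proportionally higher in the members, at 9.28 and 4.41 against 2.42 and 0.996. In the deligated libraries Prol1 stood at 6.41 and 6.01 in members and 15.6 and 17.4 in endothelial cells, and Car6 at 2.83 and 2.14 against 10.3 and 4.30. Klk1, a kallikrein of duct cells, was at 82.7 and 64.2 CPM in homeostatic members, below its 560.1 and 605.9 in endothelial cells of the same libraries.

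The rule left out most product-rich cells. With the same 30% boundary, 516 homeostatic cells were led by the Mucl2 set, of which 79 were members. Among those 516, 333 had fewer than 2 UMIs of Aqp5 and Bhlha15, and 225 had 3 or more of the duct genes Fxyd2 and Cox8b, a sodium pump regulator and a mitochondrial enzyme subunit. In the deligated libraries 9 cells reached the boundary, 4 of them members. For the Dcpp genes at 5% or more, 199 homeostatic cells included 8 members and 2 deligated cells included 1. The Fxyd2 and Cox8b clause alone removed 48 and 38 homeostatic cells that passed every other clause, and none in the deligated libraries.

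Cells on both sides of the threshold of 2 UMIs on Aqp5 and Bhlha15 had like product shares. Just outside it, with 1 UMI and every other clause met, were 0 and 1 deligated and 26 and 37 homeostatic cells, and the median Mucl2 set share of the latter was 76.8% and 82.6%. Just inside, with 2 UMIs, were 1 and 0 deligated and 19 and 21 homeostatic cells at 82.0% and 85.2%. No barcode sequence was shared between members of different libraries.

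Members made up 0.0885% and 0.0358% of retained deligated cells and 0.452% and 0.497% of retained homeostatic cells (mean ± SD 0.0621% ± 0.0373 and 0.475% ± 0.0317, n = 2 libraries each). The groups did not overlap, and with edgeR's quasi-likelihood test on cell counts the share was lower in deligated libraries, with a log2 ratio of -3.10 (SE 0.64, adjusted p 0.00029). Of the 8 cell classes tested, 75% passed the same threshold, so a change in share is not particular to these cells. When every cell was first thinned to 1000 UMIs, 1 and 0 deligated and 7 and 7 homeostatic members were left, and the ratio of -3.01 no longer passed (adjusted p 0.0528).

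Most other epithelial classes were lower as well. Epithelial cells of any class were 1.13% and 1.42% of retained deligated cells against 24.2% and 25.2% of homeostatic cells, and striated duct cells 0.619% and 1.00% against 21.0% and 21.5%. Basal and myoepithelial cells did not pass edgeR's test, at 0.265% and 0.0715% against 0.128% and 0.298% (adjusted p 0.373). Of epithelial cells, members were 4 of 51 (7.84%, 2.18 to 18.9%) and 3 of 119 (2.52%, 0.523 to 7.19%) in the deligated and 1.87% and 1.97% in the homeostatic libraries. With this denominator the log2 ratio was 1.16 (SE 0.69, adjusted p 0.25). How much epithelium the bead depletion removed from each library was not tested.

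**Figure D4:**
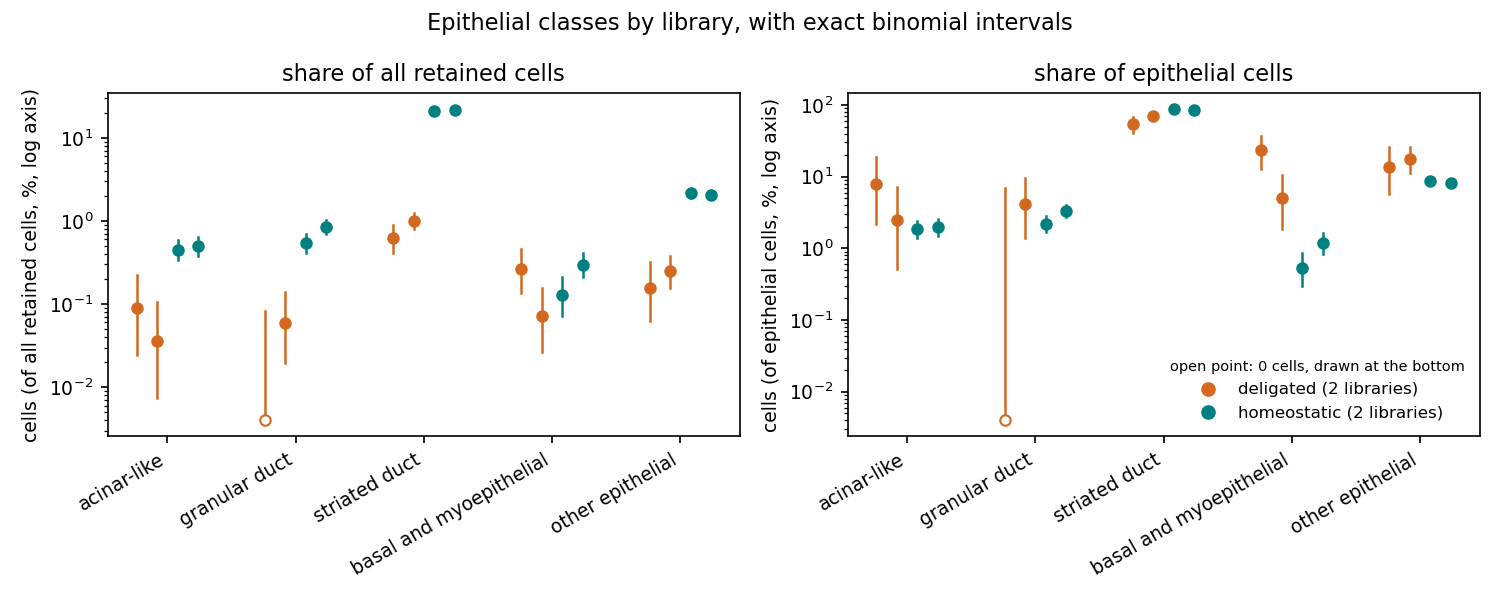
Shares of the 5 epithelial classes (log axis, %) of all retained cells (left) and of epithelial cells (right) per library, with exact 95% binomial intervals that cover counting error only; open points are 0 cells. Acinar-like cells are lower in both deligated libraries on the left and not on the right.

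The 7 deligated members were 4 Mucl2-led cells, 1 Dcpp-led cell and 2 others, and they differed widely, so each is described. In replicate 2 all 3 were Mucl2-led, with 28242, 13610 and 12621 UMIs from 941, 451 and 1142 genes, and Mucl2 set shares of 90.6%, 90.6% and 79.0%. The first and second had 1 Malat1 UMI each and the third 103. In replicate 1 the Mucl2-led cell had 8244 UMIs from 391 genes, 89.1% in the Mucl2 set and 1 Malat1 UMI.

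The product mix of these 4 cells lay mostly inside that of the 79 homeostatic Mucl2-led cells. Mucl2 took 56.2% to 66.3% of UMIs (homeostatic 36.7% to 82.5%), Prol1 2.84% to 4.09% (1.87% to 15.3%) and Car6 1.24% to 1.62% (0.494% to 4.56%). Scgb1b27 took 12.4% to 20.7%, with 1 cell above the homeostatic maximum of 17.5%. Wfdc12 was at 0.109% to 0.375%, and Smgc at 0 in all 4.

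The other 3 deligated members were in replicate 1 and held more genes. One had 19713 UMIs from 4630 genes, 13.4% in the Mucl2 set, and 435 UMIs of the fibroblast markers, among them 230 of Dcn, a matrix proteoglycan, beside 3 UMIs of Aqp5 and Bhlha15. The second had 8853 UMIs from 2942 genes, no Mucl2, 10 Epcam and 5 Aqp5 UMIs, and 11 of the basal and myoepithelial markers. The third, Dcpp-led, had 16576 UMIs from 3852 genes, 21 Aqp5, 15 Epcam and 4 Kit UMIs, and 21.1% of its UMIs in the Dcpp genes, below the 44.7% of the lowest homeostatic Dcpp-led cell. It also had 30 leukocyte marker UMIs, all of Lyz2, a lysozyme. The first of these cells thus held all 6 fibroblast markers, while the Dcpp-led cell held only 1 of the 8 leukocyte markers. Both are given beside the results below, and their part in them was not tested.

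Expression was compared on UMIs summed over the members of each library, 53386 and 54473 for deligated members against 1572108 and 1837386 for homeostatic ones. With edgeR's quasi-likelihood test, 79 of 3019 genes were higher in deligated members (2.62% of genes tested) and 100 lower (3.31%), 5.93% in all, at an adjusted p under 0.05. At an unadjusted p under 0.05 there were 561. Overlap was judged in CPM over all UMIs. The groups did not overlap for 47 of the 79 and 98 of the 100, against 33.8% of all genes tested. The fit itself multiplied the UMI totals by scaling factors of 2.50 and 0.787 (deligated) and 0.748 and 0.678 (homeostatic). Order in CPM can therefore differ from order in the fit. These calls rest on 7 deligated cells, and 1 library decides the higher ones: without deligated replicate 1 there were 3 higher and 71 lower, and without deligated replicate 2 there were 267 and 411. Without homeostatic replicate 1 the total was 39 and without homeostatic replicate 2 it was 30, with 643 and 652 genes tested. With the replicate number as a block 24 genes passed. Without the members that carried 10 or more UMIs of another lineage's markers the counts were 11 higher and 79 lower, among them 9 of the 79 and 50 of the 100. This also left out the deligated Dcpp-led cell, for its Lyz2 UMIs alone.

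The genes called higher were largely those of the single cell with fibroblast markers and of the Dcpp-led cell. Of the 79, 33 had at least 50% of their deligated UMIs in the first and 21 in the second. The 12 largest by the naming rule were Fbln2, Itm2a, Col4a1, S100a6, Itih5, Col4a2, Ahnak, Marcks, Igfbp7, Mgp, Ebf1 and Txnip. Several encode matrix and basement membrane proteins, such as fibulin 2 (Fbln2) and the collagen IV chains Col4a1 and Col4a2. Marcks, a membrane-bound actin regulator, had 60 and 1 UMIs in deligated and 17 and 8 in homeostatic members (log2 fold change 4.87, SE 0.48, adjusted p 1.53e-20), and 59 of the 61 deligated UMIs came from the cell with fibroblast markers.

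Fbln2 and Col4a1 were spread over more cells. Fbln2 had 24 and 1 UMIs against 1 and 0, from 4 of the 7 deligated cells. In CPM pooled by group this was 790 times the homeostatic level (exact 95% counting interval 129.4 to 32447). Col4a1 had 14 and 3 against 2 and 1, also from 4 cells, or 179 times (51.8 to 954). These intervals do not cover the spread between the few cells that hold the UMIs. With the scaling of the fit, the log2 fold changes were 7.84 (SE 0.90) for Fbln2 and 6.06 (SE 0.78) for Col4a1. S100a6, a small calcium-binding protein, had 105 and 2 against 13 and 5 UMIs in 5 deligated cells, 82 of them in the cell with fibroblast markers. Ebf1, a transcription factor of stromal and B cells, had 12 and 1 against 12 and 0. For each of these genes the larger deligated count was in replicate 1, which held all 3 cells of high gene number.

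Among the 100 genes called lower, 49 had no UMI in any deligated member. A count of 0 over 107859 deligated UMIs allows up to 27.8 CPM (3 counts over the group), so the fold is a lower bound: the median bound over the 49 genes was 1.57-fold and exceeded 10-fold for 2 genes. Smgc had 0 and 0 against 7307 and 11623 UMIs (4648 and 6326 CPM) and was at least 197-fold lower (adjusted p 4.35e-09). Smgc had UMIs in 35 of 113 homeostatic members, and none of 7 cells allows a share of up to 42.9% of cells with a UMI, which is no limit on cells that express the gene. Pde4d, a cyclic AMP phosphodiesterase, was at least 10.5-fold lower (0 and 0 against 486 and 501 UMIs). Pglyrp1, a bacterial wall-binding secreted protein, was at least 7.68-fold lower (406 and 310) and Esrrg at least 6.75-fold (332 and 302). Pde4d was also lower in deligated endothelial cells, at 15.4 and 15.3 against 128.8 and 129.3 CPM. Among homeostatic members it stood at 4320 and 4346 CPM in A2ml1-rich cells, a kind with no deligated member, and at 37.0 and 32.5 in Mucl2-led cells.

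A2ml1 had 1 and 0 against 6076 and 6360 UMIs, 393 times lower (70.6 to 15540 by counting error). The other genes by the naming rule had 0 UMIs in deligated members. They were Chst9, a sulfotransferase (at least 4.70-fold lower), Lman1l, a relative of an export cargo receptor (4.32), and Stk39, the kinase that acts on chloride transporters (2.81). Klk1 (2.64), Naaladl2 (2.37), Rbm47, an RNA-binding protein (2.31), and Tacc2 (2.31) made up the rest. In homeostatic members Klk1 lay below its level in endothelial cells, as given above. Smgc and A2ml1 were used to draw kinds of homeostatic members that no deligated member belonged to. Pglyrp1 was highest in homeostatic Dcpp-led cells (1743 and 2400 CPM), a kind with 1 deligated cell.

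Lists of genes were set with earlier results of these data known and are described by counts and medians beside those of all genes tested, whose median log2 fold change was -0.34. Of 24 secretory products 15 were tested, 5 were lower and none higher, with a median of -2.46. The 5 were Smgc, Dcpp1, Bpifa2, Oit1 and Lpo. Bpifa2 had 5 and 0 against 3569 and 3627 UMIs (log2 fold change -6.84, SE 1.14, adjusted p 2.05e-07) and Dcpp1 45 and 0 against 18105 and 15548. The 5 deligated UMIs of Bpifa2 were in the cell with fibroblast markers, and the deligated Dcpp-led cell had none. All 45 deligated UMIs of Dcpp1 were in the Dcpp-led cell. The near copies overlapped between groups and did not pass, with Dcpp2 at 22440 and 0 against 29882 and 15099 CPM (adjusted p 0.205) and Dcpp3 at 42352 and 0 against 44451 and 23264 (adjusted p 0.36). Summed, the 3 genes had 65635 and 0 against 85848 and 46825 CPM, which overlap, and the call on Dcpp1 alone is uncertain.

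The most abundant products did not pass the test. Mucl2 had 6298 and 34561 against 753125 and 968991 UMIs, a log2 fold change of -0.73 with an SE of 2.23 (adjusted p 0.908). Scgb1b27 (-0.58, SE 1.69), Prol1 (-1.22, SE 1.45), Car6 (-1.18, SE 1.21) and Pip (-0.12, SE 1.15) had errors of the same size. The deligated replicates lay on either side of the homeostatic ones for Mucl2, at 117971 and 634461 against 479054 and 527375 CPM. Oit1 and Lpo rested on 2 deligated UMIs each, with ratios of 5.17 (1.42 to 42.9) and 3.86 (1.06 to 32.0).

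Of 9 fluid secretion genes tested, 3 were lower and 1 higher, with a median of -1.06. Slc12a2 had 8 and 2 against 536 and 742 UMIs (149.9 and 36.7 against 340.9 and 403.8 CPM, log2 fold change -3.24, SE 0.80, adjusted p 0.00186). Atp1b1, a sodium pump subunit, had 131.1 and 18.4 against 122.8 and 125.7 CPM (log2 fold change -1.97, SE 0.66, adjusted p 0.0483 in edgeR). In CPM the groups overlapped and deligated replicate 1 was above both homeostatic libraries. The fit multiplied the UMI total of that replicate by 2.50, against 0.748 and 0.678 for the homeostatic libraries, which lowers its level in the fit. Kcnma1 had 1 and 0 against 133 and 130 UMIs, a ratio of 8.32 (1.48 to 330). Car12, a membrane carbonic anhydrase, had 49 and 0 against 37 and 51 UMIs (log2 fold change 2.77, SE 0.44, adjusted p 4.05e-08), and 47 of the 49 were in the Dcpp-led cell. Replicate 2, with none, lay below both homeostatic libraries.

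Among receptors and calcium signalling genes 9 were tested and only Chrm3 passed edgeR's test (log2 fold change -2.41, SE 0.70, adjusted p 0.0137). It had 6 and 0 against 186 and 239 UMIs, or 112.4 and 0 against 118.3 and 130.1 CPM. In CPM, before the scaling of the fit, deligated replicate 1 thus lay just below both homeostatic libraries. Chrm3 was also at 0 UMIs in the 55 homeostatic Mucl2-led cells with 0 to 2 Malat1 UMIs. Of 13 acinar transcription factors tested 5 were lower and none higher, with a median of -1.65 (-1.20 with genes at 0 set to their bound). Nupr1 fell in both replicates, from 2009 and 1348 to 243.5 and 238.7 CPM (log2 fold change -3.66, SE 0.90, adjusted p 0.002), with UMIs in 6 of 7 deligated members. The mix of kinds differed between the groups. Of the 3159 and 2477 homeostatic UMIs, 1280 and 952 were in A2ml1-rich cells and 713 and 372 in the 14 cells with low A2ml1. In homeostatic Mucl2-led cells Nupr1 stood at 632 and 700 CPM. Creb3l1, a membrane-bound factor of secretory cells, rested on 3 deligated UMIs, and Esrrg, Spdef, a factor of mucous cells, and Tfcp2l1, a factor of duct epithelium, on 0. Xbp1, which drives the secretory pathway, had a log2 fold change of -1.11 (adjusted p 0.308) and Etv1 of -1.21 (adjusted p 0.238).

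Of 24 endoplasmic reticulum genes tested 2 were lower, P4hb, a protein disulfide isomerase (-2.16, SE 0.71, adjusted p 0.0414), and Derl3, with 0 UMIs in deligated members. The list's median was -0.64, and the chaperones Hspa5 (-0.05, SE 0.58) and Calr (0.05, SE 0.54) did not pass. Rab27b, a granule GTPase, was the only one of 9 granule genes called, with 0 and 0 against 88 and 89 UMIs. Of 6 mucin glycosylation genes Galnt7 and St3gal1, transferases that start and cap mucin sugars, were called lower (-2.58 and -2.73). For Galnt7 the groups overlapped, at 93.7 and 0 against 92.2 and 142.1 CPM, and its 5 deligated UMIs were in 1 cell. None of 10 junction genes, 5 duct and progenitor genes or 5 growth factor genes passed edgeR's test, no cell cycle gene was tested, and the 1 clock gene tested did not pass.

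Immediate early genes were higher, in 6 of 11 tested, with a median of 1.88, and none was lower. Fos had 93 and 1 against 36 and 39 UMIs (log2 fold change 3.73, SE 0.58, adjusted p 1.36e-08), Junb 52 and 1 against 29 and 48, and Jun 62 and 3 against 58 and 58. These genes answer to stress and tissue dissociation as well as to growth signals. The groups overlapped for 4 of the 6, Fos, Junb, Ier2 and Btg2, and not for Jun and Zfp36. Of the 94 Fos UMIs, 85 were in the Dcpp-led cell, as were all 44 of Btg2. In deligated replicate 2 Fos stood at 18.4 CPM, below the homeostatic 22.9 and 21.2. Of 9 interferon and antigen presentation genes 2 were higher: B2m, the light chain of class I molecules (14 and 2 against 14 and 8 UMIs, adjusted p 0.000138), and H2-D1, a class I heavy chain (37 and 7 against 94 and 114, adjusted p 0.0473).

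**Figure D5:**
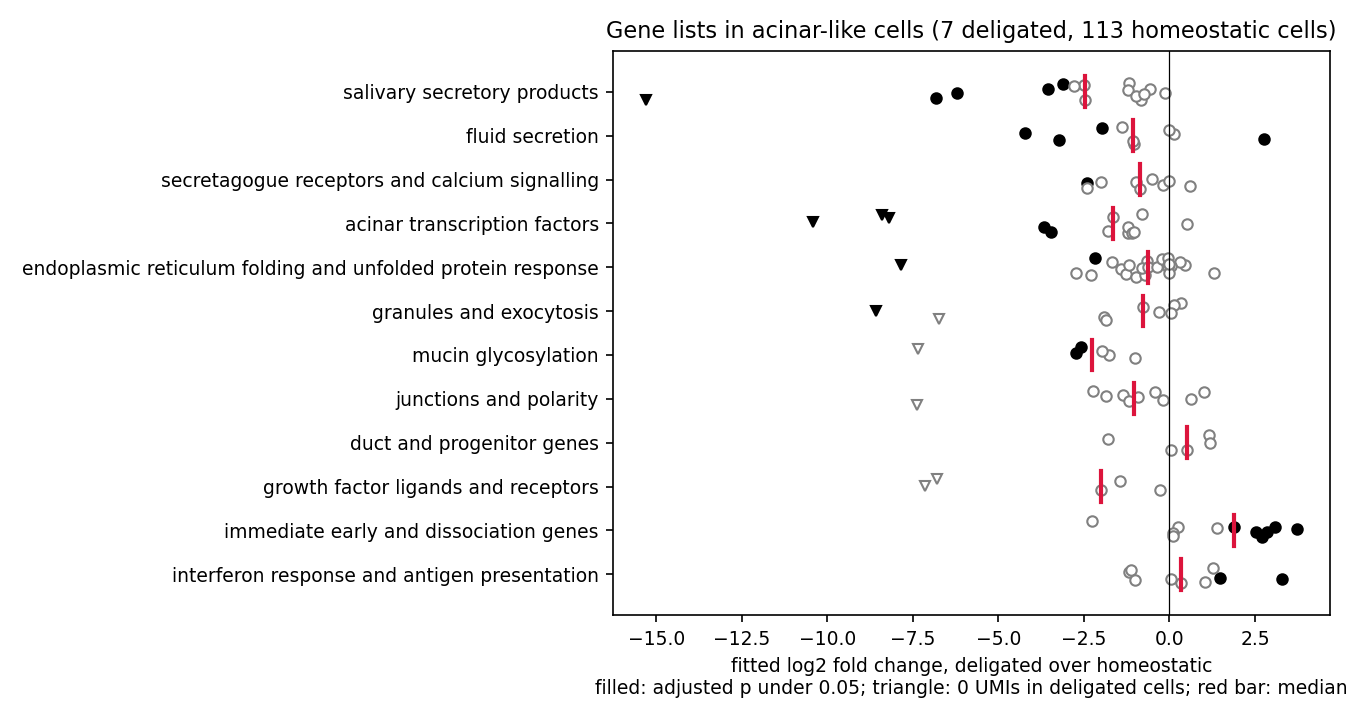
Fitted log2 fold change (deligated over homeostatic, horizontal axis) of each tested gene of 12 lists; filled symbols passed an adjusted p under 0.05 in edgeR, triangles had 0 UMIs in deligated members (their position is no measured fold), and red bars are list medians. The secretory products have a median of -2.46 and the immediate early genes of 1.88, against -0.34 for all genes tested.

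Intron length was compared with the changes: across the 3019 genes the Spearman correlation of log2 fold change with intron length was -0.19, a description over genes that share libraries. Outside the secretory products, genes with over 100 kb of intron held a UMI share of 6.61% and 3.70% for deligated and of 8.41% and 8.71% for homeostatic members. Over all UMIs the shares were 4.94% and 0.439% against 1.82% and 1.76%, with deligated replicate 1 above and replicate 2 below both homeostatic libraries. Such genes were 35 of the 100 called lower and 11 of the 79 called higher. Their share among all 3019 genes tested is not given, so neither count is read as an excess. With the length trend taken out, 55 of the 100 and all 79 higher genes were still called in the same direction. In all, 102 were then higher and 55 lower. The headers name different software versions for the groups, and their part in this was not tested.

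Whether the change was larger in acinar-like cells than in endothelial cells of the same libraries was asked with an interaction term. In this fit 164 of 12924 genes (1.27%) moved up relative to endothelial cells and 114 (0.882%) down, 2.15% in all, with 1421 at an unadjusted p under 0.05. Under another scaling of the libraries (RLE) the split was 243 and 40, since the median over all genes moved from -0.90 to -0.40. With the intron-length trend taken out it was 930 and 1, and 1 of the 114 downward genes was still called. Restricted to Mucl2-led members no gene passed in edgeR, with 616 at an unadjusted p under 0.05. Without homeostatic replicate 1 the count was 1 (193 at an unadjusted p under 0.05) and without homeostatic replicate 2 it was 0 (134 at an unadjusted p under 0.05). Without deligated replicate 1 it was 149 and without deligated replicate 2 it was 681.

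Among the genes named upward in this test, 10 were those named above (Fbln2, Itm2a, Col4a1, Itih5, S100a6, Ebf1, Col4a2, Ahnak, Marcks and Igfbp7), and Mup5 was added. Mup5, a major urinary protein whose close relatives may share reads, had 64 and 75 against 330 and 179 UMIs in members, or 1199 and 1377 against 209.9 and 97.4 CPM, and 4.44 or less CPM in endothelial cells (difference of log2 fold changes 5.54, SE 0.67, adjusted p 6.20e-13). Its deligated UMIs came from 3 of the 4 Mucl2-led cells, with 34, 13 and 62, and from the cell with fibroblast markers, with 30. The downward genes were Pglyrp1, Tacc2, Sec16a, Pmm2, Stk39, Cdh1, Mfsd6, Isg20, Pde4d, Pck2, Gpr155 and Clcn3, all with 0 UMIs in deligated members, so no fold is given. Pde4d was lower in deligated endothelial cells as well, as given above. Sec16a organises export sites of the endoplasmic reticulum, and Pmm2 supplies mannose for glycosylation. Cdh1, the adhesion protein of epithelium, had 34 and 43 UMIs in homeostatic members, or 21.6 and 23.4 CPM. Pck2 stood at 15.9 and 19.0 CPM there. In CPM over all UMIs, both genes lie under the 27.8 CPM that 0 deligated UMIs allow, so these CPM do not show a decrease. Between the groups Cdh1 did not pass edgeR's test (adjusted p 0.126).

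Of the 17 secretory products tested for this difference, only Pip passed: relative to endothelial cells it moved up (3.89, SE 1.15, adjusted p 0.0369). In members it had 3334 and 17385 against 8564 and 9449 CPM, with overlapping groups, and in endothelial cells 1.56 and 3.80 against 98.5 and 171.6. In edgeR 3 of 15 fluid secretion genes moved down and 2 up, 4 of 26 endoplasmic reticulum genes down, and 3 of 16 acinar transcription factors down and 1 up.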

How the data were processed

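The 4 libraries were 10x Genomics single-cell RNA. The deposited matrices hold raw UMI counts for 31053 genes, made by Cell Ranger 6.0.1 (deligated) and 7.0.0 (homeostatic) per the file headers; the submitters' processing notes name Cell Ranger 6.0.1, Seurat and mm10 for all. Retained barcodes were 4521, 8386, 11713 and 12065, with 34737772, 52927714, 51353785 and 50034327 UMIs. Intervals and floors cover counting error only. Doublets were scored after the Scrublet method and left in, except in an alternative. Counts were summed per class and library (endothelial: at least 2 Pecam1 UMIs and none of Ptprc, Krt8, Krt18 or Epcam; striated duct: 3 or more of Fxyd2 and Cox8b; granular duct: 5% or more in the Klk1b genes) and tested with edgeR 4.0.16 (TMM, filterByExpr, quasi-likelihood, Benjamini-Hochberg over all genes tested, threshold 0.05). The interaction fit had a term per library. DESeq2 1.42.0 was an alternative. On simulated counts the fit recovered 94 of 100 genes changed 4-fold and 100 of 100 changed 16-fold among 2340 genes for the group comparison, with the low spread the fit itself estimated. The text names the 12 largest called genes each way with at least 20 UMIs in members and groups not overlapping, leaving out rule, unnamed and mitochondrial genes, and 2 to 5 genes a list; some genes that the rule names are not reported here. Members, rule and lists were chosen with earlier results of these data known. Coordinates and introns came from GENCODE M21, matching 31011 identifiers, and promoters from RefSeq (GRCm38.p6), with all 5 genes matched. Replicate numbers did not pair the libraries (Pearson of deviations 0.01 over 3019 genes). An alternative restricted to members without any other lineage's marker left no deligated cell and was not run.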

Additional observations from a re-analysis of the deposited data

How the results depend on the processing

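The count of genes that differed between groups was 179, and within 1.5 times of that under RLE scaling, a stricter cell filter, 3 UMIs of Aqp5 and Bhlha15, doublet removal, scaling without the secretory products and removal of the intron trend. It was 534 without a filter on low counts, 114 in DESeq2, 24 with the replicate block, 9 after thinning, 90 without members carrying another lineage's markers and 26 in Mucl2-led members alone; the last 2 were chosen after seeing the data. Leaving out 1 library gave 30 to 678. The count of genes whose change differed from endothelial cells was 278, and 931 with the intron trend removed, 38 after thinning, 0 in Mucl2-led members and 0 to 681 with 1 library left out, where the lone library is assumed to vary like the others. The log2 ratio of shares was -3.10, -3.01 after thinning before the rule (adjusted p 0.0528), 1.16 against epithelial cells, -3.10 with the replicate block, and -3.69 to -2.41 with 1 library left out. With the replicate block 11 of the 24 named genes no longer passed. Of the genes named for the difference from endothelial cells, Itih5 turned to -7.61 after thinning and S100a6 to -0.029 in Mucl2-led members. The cause was not tested. Depth limits the deligated values: 107859 UMIs from 7 cells.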
